A study of Homo sapiens with 48 samples.

Results

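The 10 genes described here, of 58302 in the deposited count table, encode the receptor for interleukin 6 and the signalling chain behind it. They were taken as the rows whose symbol was IL6R, IL6ST, JAK1, JAK2, STAT3, SOCS1, SOCS3, PIM1, PIM2 or CISH, and each symbol had 1 row. The set was chosen by measured values, because IL6R was among the genes that fell most after shIRE1 induction in these libraries. Its changes in the shIRE1 clones are therefore given as values, with no test, and support nothing. The other 9 genes were added as its partners and feedback genes.

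The cells were AMO1, an established human multiple myeloma line from a plasmacytoma, with short hairpin RNAs (shRNAs) that doxycycline (Dox) switches on. The shIRE1 clones 1 and 3 carried IRE1 sh7, sh8 and sh9, directed against ERN1, the gene of the endoplasmic reticulum stress sensor IRE1. The shXBP1 clones 1 and 18 carried XBP1 sh4, sh6 and sh7, directed against the gene of a transcription factor whose mRNA is spliced by IRE1. Each group was 1 clone after 0, 24, 48 or 72 h of Dox at 0.2 µg/ml, or without Dox for 0 h, in 3 biological replicates, which gave 16 groups and 48 libraries. Each shRNA set was represented by only 2 clones. No non-targeting shRNA served as a control here. The 0 h libraries of the same clone took that place, and what Dox alone or any shRNA would do to a gene cannot be told apart from the knockdown.

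Interleukin 6 is a growth and survival factor of plasma cells and of myeloma cells. It binds the receptor chain encoded by IL6R, and the complex engages gp130, the signalling chain encoded by IL6ST, which the whole cytokine family shares. The kinases JAK1 and JAK2 sit on gp130 and phosphorylate STAT3, which then enters the nucleus and switches on genes. Among these are the inhibitors SOCS1 and SOCS3, which shut signalling down again, and the serine/threonine kinases PIM1 and PIM2, which favour survival. CISH encodes another inhibitor, first known as a target of STAT5.

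Levels are given as CPM, read counts scaled to the library total after adjustment by its normalization factor (TMM, 0.924 to 1.09). That total lay between 19177855 and 40767202 counts, and 1 count in the shallowest library was worth 0.0521 CPM before that factor. The targeted mRNAs were lower after Dox in every clone. Mean ERN1 stood at 0.633 to 0.832 of its 0 h level in shIRE1 clone 1 and at 0.276 to 0.331 in shIRE1 clone 3. These clones began at means of 152 and 438 CPM. After Dox the means were 96.4 to 127 CPM in clone 1 and 121 to 145 CPM in clone 3. Mean XBP1 stood at 0.204 to 0.271 of its 0 h level in shXBP1 clone 1 and at 0.223 to 0.368 in shXBP1 clone 18. The 9 plasma cell markers examined all had a median above 1 CPM, whereas none of the 4 B cell, 4 monocyte or 4 stromal and endothelial markers did. Of the 4 T and NK cell markers, CD3E, CD8A and NCAM1 were above 1 CPM and CD3D was at 0 in 42 of 48 libraries.

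The library labelled shXBP1 clone 18, 72 h, replicate 3 stood apart. Across genes it correlated at 0.983 with its own group and at 0.994 with shXBP1 clone 1 at 72 h. It also carried the clone 1 pattern at several of the 10 genes. PIM2 read 489 CPM in it, where the rest of the group read 1002 and 1085 CPM and shXBP1 clone 1 at 72 h read 490 to 526 CPM. PIM1 read 108 CPM, beside 67.5 and 75.1 CPM in the group and 111 to 115 CPM in clone 1. The library was kept under its label. Calls among the 10 genes that changed with it left out are also given that way, while most other values that use it are given only with it in. The library labelled shIRE1 clone 3, 24 h, replicate 1 lay slightly nearer to shIRE1 clone 1 (0.9925) than to its own group (0.9909).

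At 0 h the genes spanned a wide range of levels. Scaled per kilobase of transcript, PIM2 was the most abundant in every clone, with means from 224 to 621 CPM per kb. JAK1 stood between 39.1 and 52.2 CPM per kb, and PIM1 between 22.2 and 62.4. STAT3 lay between 16.7 and 20.7 CPM per kb, IL6ST between 9.01 and 17.7, and IL6R between 8.46 and 15.6. The receptor chains changed places among the clones, as IL6R exceeded IL6ST in shXBP1 clone 1 (15.6 ± 0.0495 against 9.01 ± 1.03 CPM per kb, SD, n = 3) and lay below it in the other 3. JAK2 ran far below JAK1, from 1.47 to 4.47 CPM per kb. The feedback inhibitors were the least abundant, with CISH at 0.351 to 0.865, SOCS3 at 0.215 to 0.393 and SOCS1 at 0.0607 to 0.371 CPM per kb.

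Each clone was then compared at 24, 48 and 72 h with its own 0 h libraries, to ask which of the genes followed the induction of the shRNAs. A gene is called where its adjusted p in the edgeR quasi-likelihood test was under 0.05. In shIRE1 clone 1, 3 of the 9 genes tested besides IL6R were higher and 3 were lower at 24 h, where 32.4% of all 17154 genes were called higher and 29.0% lower. The counts were 5 higher and 4 lower at 48 h (33.9% and 31.5% of all genes) and 5 higher and 3 lower at 72 h (32.5% and 31.1%). In shIRE1 clone 3 they were 3 higher and 5 lower at 24 h (22.8% and 23.3% of 17204 genes), 5 higher and 3 lower at 48 h (31.6% and 31.6%) and 5 higher and 3 lower at 72 h (29.7% and 30.5%). In shXBP1 clone 1, where SOCS1 had too few counts to be tested, 3 of the other 9 rose and 2 fell at 24 h (13.9% and 12.8% of 16603 genes). The counts were 3 and 2 at 48 h (16.6% and 15.5%), and 4 and 2 at 72 h (16.8% and 16.8%). In shXBP1 clone 18 none of the 10 genes was called at 24 or 48 h and 1 at 72 h, while 1.59%, 5.78% and 9.96% of 16860 genes were called. At an unadjusted p under 0.05 the edgeR counts there were 1 at 24 h (IL6ST) and 2 at 48 h (IL6R and IL6ST), and DESeq2 called 1 gene at 24 h and 0 at 48 h. Without the library that stood apart, 2, 3 and 2 of the 10 were called in this clone at 24, 48 and 72 h, and 4.78%, 12.9% and 7.57% of 17171 genes. Leaving out the 24 h replicate 1 of shIRE1 clone 3, named above, took the 24 h calls there from 8 to 7. The same count of 7 came from leaving out any one of the 6 libraries of that comparison. SOCS1 was among the higher genes in every shIRE1 count, and was tested in these clones only because it was high after Dox. With so many genes called after shIRE1, the number of calls is no result about these 10, and the direction, size and timing of each gene are described instead.

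**Figure D1:**
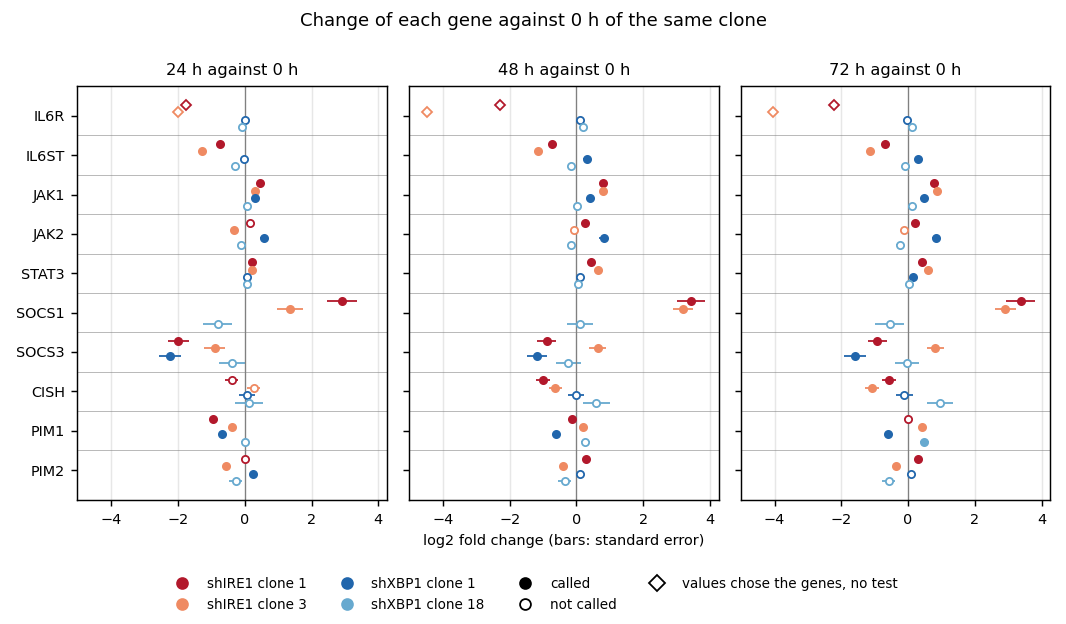
Log2 fold change (x axis) of each of the 10 genes (y axis) at 24, 48 and 72 h against 0 h in the 4 clones, with bars for the standard error. Filled points were called (adjusted p under 0.05), open points were not, and open diamonds mark IL6R in the shIRE1 clones, whose values chose the genes. SOCS1 lies furthest to the right in both shIRE1 clones at 48 and 72 h, and in these clones STAT3 and JAK1 lie right of 0 at every time and IL6ST left of it.

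IL6R (ENSG00000160712) encodes the chain that binds interleukin 6, and lies on chromosome 1 from 154405193 to 154469450 on the plus strand (GRCh38). The libraries of shIRE1 clone 1 read 50.1, 47.3 and 48.9 CPM at 0 h and 14.6, 13.8 and 14.6 CPM at 24 h. They read 10.8, 9.56 and 9.74 CPM at 48 h and 10.4, 10.0 and 11.2 CPM at 72 h. All 9 libraries after Dox lay below the 0 h libraries. Those of shIRE1 clone 3 read 66.3, 75.9 and 72.0 CPM at 0 h and 17.1, 18.2 and 18.0 CPM at 24 h. They fell further, to 2.71, 3.18 and 3.71 CPM at 48 h and 4.88, 3.55 and 4.62 CPM at 72 h. The mean level stood at 0.206 of 0 h in clone 1 and at 0.0448 in clone 3 at 48 h. As log2 fold changes the values were -1.77, -2.28 and -2.21 at 24, 48 and 72 h in clone 1, with standard errors of 0.06 to 0.07. Clone 3 had -2.01, -4.48 and -4.05, with standard errors of 0.10 to 0.12. RNA was taken from bulk cultures, so fewer cells with an mRNA and less of it per cell cannot be told apart here or below.

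After shXBP1 induction IL6R was tested. Its level in shXBP1 clone 1 was 89.7, 90.0 and 89.5 CPM at 0 h, 92.6, 92.8 and 91.0 CPM at 24 h, 96.7, 99.3 and 97.6 CPM at 48 h and 89.4, 89.5 and 90.9 CPM at 72 h. The replicates lay close together, and the groups at 24 and 48 h lay just above the 0 h libraries. The changes of 0.01, 0.11 and -0.02 on the log2 scale (standard errors 0.04) were not called, with adjusted p = 0.833, 0.0624 and 0.764. Its level in shXBP1 clone 18 was 72.1, 70.7 and 69.5 CPM at 0 h, 63.5, 67.7 and 67.2 CPM at 24 h, 82.9, 78.0 and 83.6 CPM at 48 h and 70.5, 69.8 and 89.8 CPM at 72 h. The 48 h libraries lay above all 0 h libraries, and the 72 h value of 89.8 CPM came from the library that stood apart. The changes of -0.10, 0.20 and 0.13 were not called (adjusted p = 0.703, 0.192 and 0.376). Without that library they were -0.10, 0.21 and -0.01, and the rise at 48 h passed the threshold (adjusted p = 0.0137).

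Before Dox the order of IL6R was shXBP1 clone 1 (89.7 ± 0.285 CPM), shIRE1 clone 3 (71.4 ± 4.85), shXBP1 clone 18 (70.7 ± 1.30) and shIRE1 clone 1 (48.8 ± 1.41, SD, n = 3). The middle pair did not differ beyond their spread. After 48 h of Dox shXBP1 clone 1 still stood above clone 18, at 97.9 ± 1.32 and 81.5 ± 3.04 CPM (SD, n = 3). Between the shIRE1 clones the order had turned, with 10.0 ± 0.648 CPM in clone 1 and 3.20 ± 0.502 CPM in clone 3.

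IL6ST (ENSG00000134352, chromosome 5, 55935095 to 55995022, minus strand) encodes gp130 and fell in both shIRE1 clones at every time. The libraries of shIRE1 clone 1 read 118, 106 and 103 CPM at 0 h and 71.3, 59.8 and 65.3 CPM at 24 h. It then held its level, with 65.1, 62.2 and 70.1 CPM at 48 h and 66.6, 67.9 and 67.4 CPM at 72 h. The gene started higher in shIRE1 clone 3, at 150, 165 and 163 CPM, and came down to a like level, with 71.3, 64.6 and 61.4 CPM at 24 h. At 72 h it read 68.1, 65.7 and 83.3 CPM there. No library after Dox overlapped the 0 h libraries in either clone. On the log2 scale the gene fell by 0.74, 0.73 and 0.70 in clone 1 (standard errors 0.06, adjusted p from 3.70e-09 to 7.82e-09). In clone 3 the changes were -1.29, -1.15 and -1.15 (standard errors 0.08, adjusted p from 4.41e-09 to 5.46e-09).

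IL6ST rose instead in shXBP1 clone 1, from 70.8, 84.6 and 88.5 CPM at 0 h to 95.7, 110 and 100 CPM at 48 h and 97.4, 104 and 103 CPM at 72 h. The rises of 0.31 and 0.30 passed the threshold (adjusted p = 0.0336 and 0.0380). They rest on a spread-out 0 h group, and both calls were lost without its replicate 1 (0.22 at either time). They were also lost without 48 h replicate 2 (0.26) or 3 (0.32) and without 72 h replicate 2 (0.29) or 3 (0.30). Its changes of -0.29, -0.17 and -0.09 in shXBP1 clone 18 were not called. Without the library that stood apart the fall at 24 h, also -0.29, was called (adjusted p = 0.0275). Exons of IL6ST overlap those of ENSG00000262211 on the other strand, and reads there may be shared, since the sources used here do not say whether counting used the strand.

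JAK1 (ENSG00000162434, chromosome 1, 64833223 to 65067754, minus strand), a kinase bound to gp130 and to many other cytokine receptors, rose in both shIRE1 clones and in shXBP1 clone 1. Clone 1 of shIRE1 read 220, 212 and 203 CPM at 0 h and 295, 288 and 287 CPM at 24 h. At 72 h it read 349, 370 and 373 CPM. Clone 3 went from 212, 229 and 230 CPM to 270, 288 and 279 CPM at 24 h and 403, 382 and 439 CPM at 72 h. The times did not overlap with 0 h in either clone, and the later libraries lay above those of 24 h. JAK1 rose by 0.45, 0.78 and 0.78 on the log2 scale in clone 1 and by 0.31, 0.79 and 0.85 in clone 3, all called at adjusted p of 0.000280 or less. It rose by 0.31, 0.40 and 0.47 in shXBP1 clone 1 (adjusted p = 0.00540, 0.00113 and 0.000350). The values of 0.08, 0.03 and 0.12 in shXBP1 clone 18 were not called. Exons of JAK1 overlap those of LINC01359 on its own strand and of RAVER2 on the other.

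JAK2 (ENSG00000096968, chromosome 9, 4984390 to 5129948, plus strand), the other kinase of the receptor, had no common direction across the clones. All libraries of shIRE1 clone 1 lay between 9.92 and 12.7 CPM. Its log2 fold changes of 0.26 at 48 h and 0.22 at 72 h were called (adjusted p = 0.00860 and 0.0261), and 0.16 at 24 h was not. Leaving out either of 0 h replicates 2 (0.18) and 3 (0.20), or 72 h replicate 1 (0.20), ended the 72 h call. The value at 24 h passed once 24 h replicate 3 was left out (0.22). It fell in shIRE1 clone 3 at 24 h, from 12.5, 14.0 and 12.1 CPM to 11.3, 10.1 and 9.73 CPM (-0.32, adjusted p = 0.0100), and changed by -0.09 and -0.12 without a call at 48 and 72 h. The clearest rise was in shXBP1 clone 1, from 10.4, 11.3 and 12.1 CPM at 0 h to 19.6, 14.5 and 17.3 CPM at 24 h and 18.8, 21.2 and 21.4 CPM at 72 h. Its log2 fold changes there were 0.58, 0.81 and 0.84 (standard errors 0.13, adjusted p = 0.00692, 0.000796 and 0.000568). The shXBP1 clone 18 libraries held more JAK2 throughout, between 22.6 and 33.1 CPM, and the changes of -0.11, -0.16 and -0.25 there were not called.

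STAT3 (ENSG00000168610, chromosome 17, 42313324 to 42388540, minus strand), the transcription factor of the pathway, rose step by step in both shIRE1 clones. Clone 1 read 88.5, 89.7 and 86.2 CPM at 0 h, 100, 97.5 and 107 CPM at 24 h and 112, 124 and 122 CPM at 48 h. Clone 3 read 87.7, 87.0 and 84.9 CPM at 0 h, 99.4, 104 and 100 CPM at 24 h and 138, 138 and 136 CPM at 48 h. All libraries after Dox lay above the 0 h libraries in both clones. STAT3 rose by 0.20, 0.44 and 0.41 on the log2 scale in clone 1 and by 0.22, 0.66 and 0.61 in clone 3, all called at adjusted p of 0.000804 or less. A rise of 0.16 at 72 h in shXBP1 clone 1 was called (adjusted p = 0.0286), which was lost without 0 h replicate 3 (0.13) or any one of the 72 h replicates (0.16, 0.17 and 0.17). Changes of 0.07, 0.04 and 0.04 in shXBP1 clone 18 were not called.

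**Figure D2:**
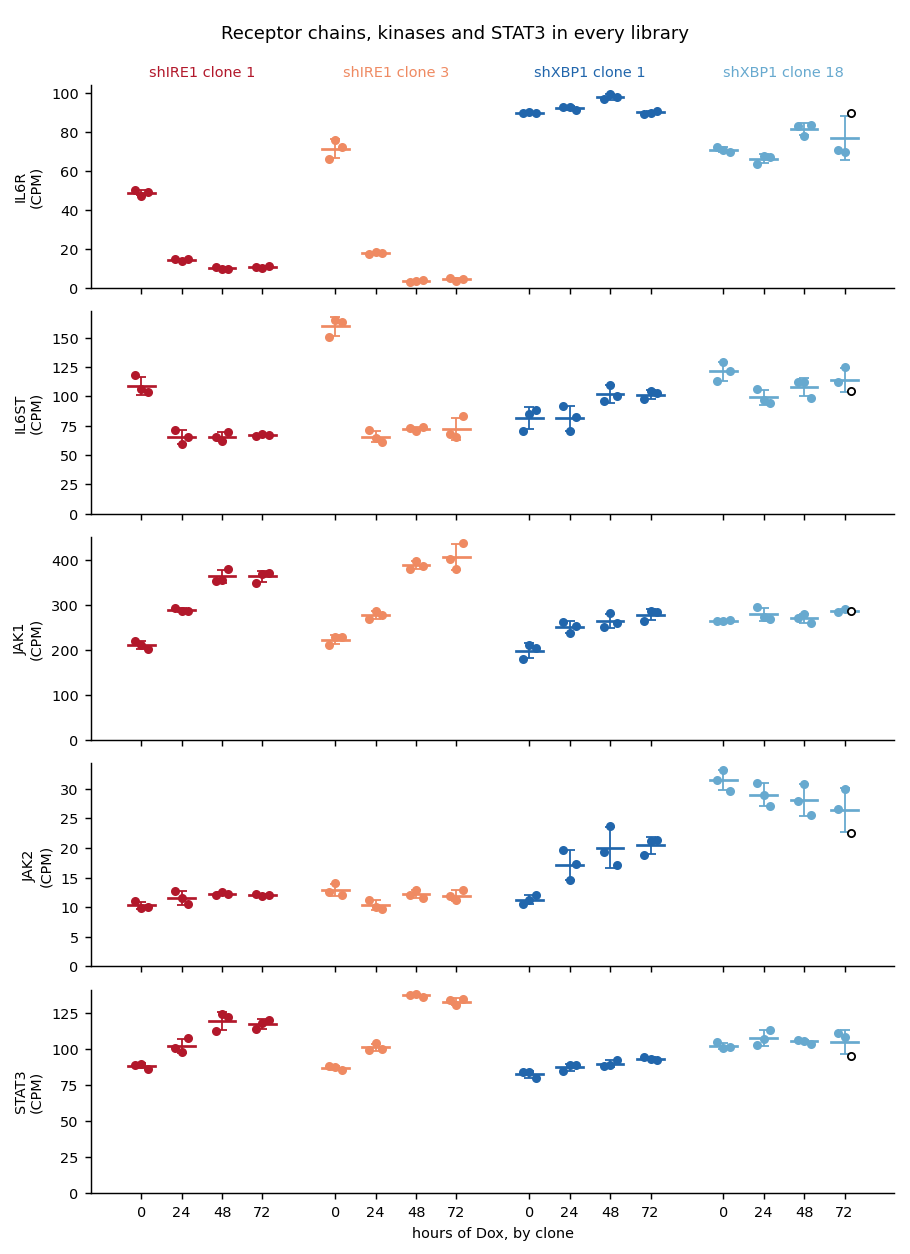
CPM (y axis, from 0) of IL6R, IL6ST, JAK1, JAK2 and STAT3 in each of the 48 libraries, by clone and hours of Dox (x axis), with lines at the group mean and bars for the SD (n = 3). The open black circle is the library labelled shXBP1 clone 18, 72 h, replicate 3. IL6R in the shIRE1 clones sits below 20 CPM after Dox and between 47.3 and 75.9 CPM before it, while STAT3 in these clones rises from 0 to 48 h.

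The promoters of the feedback genes are shown because STATs and interferon regulatory factors (IRFs) act through short motifs there. RefSeq windows of 300 bases around the start sites (GRCh38.p14) were found for all 10 genes, 16 windows in all. The SOCS3 windows, 78360876 to 78361175 and 78359618 to 78359917, did not hold the 5′ end of the gene at 78360077. The promoter of SOCS3 at that end was therefore not searched. The STAT motif TTCNNNGAA was searched on both strands and was found in the CISH window only, 4 times, against 7.66% of 35116 windows with at least 1. The IRF motif GAAANNGAA, also on both strands, was found in the SOCS1 window only, once, against 8.11% of windows. A core of the XBP1 site, ACGTG, was found in 1 window each of JAK1 and JAK2, against 21.4% of windows. The matches are a description and were not tested as sites. The CISH stretch, chr3:50611858-50612024 on the minus strand, and the SOCS1 stretch, chr16:11256289-11256337 on the minus strand, are printed 5′ to 3′ with the matches in capitals, STAT in CISH and IRF in SOCS1.
CISH: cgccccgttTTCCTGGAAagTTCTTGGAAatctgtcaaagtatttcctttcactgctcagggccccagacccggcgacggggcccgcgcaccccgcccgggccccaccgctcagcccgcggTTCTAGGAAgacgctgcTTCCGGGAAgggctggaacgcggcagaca
SOCS1: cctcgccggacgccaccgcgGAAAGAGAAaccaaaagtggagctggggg

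SOCS1 (ENSG00000185338, chromosome 16, 11254417 to 11256204, minus strand) encodes an inhibitor that binds JAK kinases, and had the largest rise of the 9 genes tested after shIRE1. It was a rare mRNA, with 1 to 52 counts per library. In both shIRE1 clones its 0 h counts lay under the minimum count of 10 needed for testing. It was tested there only because it was high after Dox, so its calls there are no independent support. Its counts in shIRE1 clone 1 were 1, 4 and 2 at 0 h and 16, 23 and 23 at 24 h. They were 37, 30 and 17 at 48 h and 21, 28 and 20 at 72 h. They went in shIRE1 clone 3 from 3, 2 and 6 at 0 h to 11, 12 and 15 at 24 h, 42, 52 and 45 at 48 h and 39, 37 and 30 at 72 h. Every library after Dox held more than every 0 h library of its clone. The ratio of the summed counts, scaled by library size, was 11.2 at 48 h in clone 1 (95% counting interval 5.22 to 28.8) and 9.41 in clone 3 (5.10 to 19.3), intervals which cover counting error only. The log2 fold changes of 2.91, 3.42 and 3.38 in clone 1 (standard errors 0.42 to 0.45, adjusted p from 8.07e-07 to 1.64e-05) and of 1.35, 3.20 and 2.91 in clone 3 (adjusted p = 0.0101, 2.84e-07 and 1.31e-06) were called. The 24 h call in clone 3 was lost without 0 h replicate 2 (1.11).

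SOCS1 did not pass the count filter in shXBP1 clone 1, where its counts were 7, 4 and 5 at 0 h and 7, 10 and 10 at 72 h. The ratio there was 1.78 at 72 h (95% counting interval 0.925 to 3.53). Those of shXBP1 clone 18 were 11, 14 and 8 at 0 h and 12, 4 and 13 at 72 h, and the changes of -0.81, 0.11 and -0.55 were not called (adjusted p = 0.456, 0.916 and 0.441). In CPM the 72 h libraries of shXBP1 clone 1 lay above its 0 h libraries, while those at 24 and 48 h, and all times in clone 18, overlapped 0 h.

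SOCS3 (ENSG00000184557, chromosome 17, 78356778 to 78360077, minus strand), the inhibitor that docks on gp130 itself, fell at 24 h in 3 of the 4 clones. It was also rare, with 6 to 54 counts per library. Its counts in shIRE1 clone 1 went from 23, 32 and 42 at 0 h to 12, 6 and 9 at 24 h, and came back in part to 15, 19 and 12 at 72 h. Its counts in shIRE1 clone 3 went from 22, 14 and 20 to 9, 17 and 14 at 24 h and then up to 45, 47 and 32 at 72 h. After 24 h the shIRE1 clones thus lay on opposite sides of their 0 h levels. SOCS3 changed on the log2 scale by -2.0, -0.90 and -0.93 in clone 1 (adjusted p = 2.09e-05, 0.00760 and 0.00801) and by -0.91, 0.64 and 0.82 in clone 3 (adjusted p = 0.0285, 0.0460 and 0.0133). In shXBP1 clone 1 SOCS3 fell from 39, 30 and 14 counts at 0 h to 8, 6 and 7 at 24 h and 8, 9 and 9 at 72 h. The changes there were -2.24, -1.19 and -1.60 (adjusted p = 0.000622, 0.0132 and 0.00319). Those of -0.39, -0.24 and -0.03 in shXBP1 clone 18 were not called, nor was 0.32 at 72 h without the library that stood apart.

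With so few counts, single libraries decided several of the SOCS3 calls. Those of shIRE1 clone 1 at 48 h (-0.68) and 72 h (-0.71) were lost without 0 h replicate 3. The fall in shIRE1 clone 3 at 24 h was lost when either of 0 h replicates 1 (-0.80) and 3 (-0.93) was left out, and with any of the 24 h replicates left out (-0.85, -0.94 and -0.94). Its rise there at 48 h was lost without any 0 h replicate (0.74, 0.52 and 0.61) and without 48 h replicate 1 (0.64) or 3 (0.36). That at 72 h was lost without 0 h replicate 2 (0.70). The call in shXBP1 clone 1 at 48 h was lost without 0 h replicate 1 (-0.83) or 48 h replicate 3 (-1.09).

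CISH (ENSG00000114737, chromosome 3, 50606489 to 50611774, minus strand), an inhibitor first known as a target of STAT5, fell in both shIRE1 clones from 48 h. In clone 1 its counts went from 27, 50 and 47 at 0 h to 19, 30 and 17 at 48 h and 26, 26 and 23 at 72 h. In clone 3 they went from 36, 29 and 38 at 0 h to 29, 33 and 27 at 48 h and 26, 20 and 15 at 72 h. In CPM the groups at 48 and 72 h lay below 0 h in both clones. CISH changed on the log2 scale by -0.39, -1.0 and -0.58 in clone 1 (adjusted p = 0.0833, 0.000371 and 0.0196) and by 0.26, -0.64 and -1.08 in clone 3 (adjusted p = 0.258, 0.0116 and 0.000446). The 72 h call in clone 1 was lost without 0 h replicate 2 or 3 (-0.49 each) or 72 h replicate 2 (-0.56) or 3 (-0.55), and the 24 h value passed without 0 h replicate 1 (-0.54). The 48 h call in clone 3 was lost without 48 h replicate 3 (-0.55). The changes of 0.07, -0.01 and -0.12 in shXBP1 clone 1 were not called. For shXBP1 clone 18 a value of 0.96 at 72 h (adjusted p = 0.137) became 0.41 without the library that stood apart, whose 81 counts compared with 34 and 22 in its group. Exons of CISH overlap those of MAPKAPK3 on the other strand.

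PIM1 (ENSG00000137193, chromosome 6, 37170152 to 37175428, plus strand), a survival kinase and textbook STAT target, dipped at 24 h in both shIRE1 clones and came back. Clone 1 read 158, 165 and 174 CPM at 0 h, 81.0, 86.0 and 89.5 CPM at 24 h, 151, 154 and 148 CPM at 48 h and 166, 170 and 165 CPM at 72 h. Clone 3 read 140, 131 and 128 CPM at 0 h, 98.7, 106 and 103 CPM at 24 h, 154, 153 and 152 CPM at 48 h and 175, 189 and 172 CPM at 72 h. The dip was deeper in clone 1, and in clone 3 the later libraries overshot the 0 h level. PIM1 changed on the log2 scale by -0.96, -0.13 and 0.01 in clone 1 (adjusted p = 1.77e-12, 0.0139 and 0.886) and by -0.38, 0.20 and 0.42 in clone 3 (adjusted p = 4.02e-05, 0.00545 and 7.88e-06). The small fall at 48 h in clone 1 was lost without 0 h replicate 3 (-0.10) or 48 h replicate 3 (-0.11).

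PIM1 fell and stayed low in shXBP1 clone 1, from 174, 171 and 161 CPM at 0 h to 105, 109 and 108 CPM at 24 h and 115, 111 and 112 CPM at 72 h. The changes were -0.68, -0.61 and -0.60 (adjusted p from 2.52e-06 to 4.76e-06). It started in shXBP1 clone 18 at 60.3, 59.9 and 60.1 CPM and read 70.3, 70.2 and 75.8 CPM at 48 h. It read 75.1, 67.5 and 108 CPM at 72 h, of which the last is the library that stood apart. The 72 h change of 0.48 was called (adjusted p = 0.0326), and was 0.25 without that library (adjusted p = 0.0265), when 0.26 at 48 h was called too (adjusted p = 0.00766). It was lost without any 1 of the 0 h replicates (0.49 each).

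PIM2 (ENSG00000102096, chromosome X, 48913182 to 48919024, minus strand), the kinase that myeloma cells hold in large amounts, moved in opposite directions in the shIRE1 clones. Clone 1 read 471, 460 and 464 CPM at 0 h, 449, 479 and 478 CPM at 24 h and 562, 584 and 561 CPM at 72 h. Clone 3 read 811, 725 and 703 CPM at 0 h, 503, 512 and 516 CPM at 24 h and 594, 582 and 576 CPM at 72 h. The clones differed before Dox and had come close to each other by 72 h. PIM2 changed on the log2 scale by 0.01, 0.28 and 0.29 in clone 1 (adjusted p = 0.834, 1.06e-06 and 7.60e-07) and by -0.56, -0.41 and -0.37 in clone 3 (adjusted p = 4.99e-07, 5.35e-06 and 1.96e-05). A rise of 0.24 at 24 h in shXBP1 clone 1 was called (adjusted p = 0.00340), and 0.10 and 0.08 at the later times were not. The libraries of shXBP1 clone 18 held 1310.2, 1262 and 1296 CPM at 0 h, and the changes of -0.27, -0.35 and -0.58 were not called (adjusted p = 0.611, 0.341 and 0.0759). Without the library that stood apart they were -0.27, -0.35 and -0.30, and all 3 were called (adjusted p = 0.00260, 0.000178 and 0.00177). The 72 h value also passed without 72 h replicate 1 (-0.78).

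**Figure D3:**
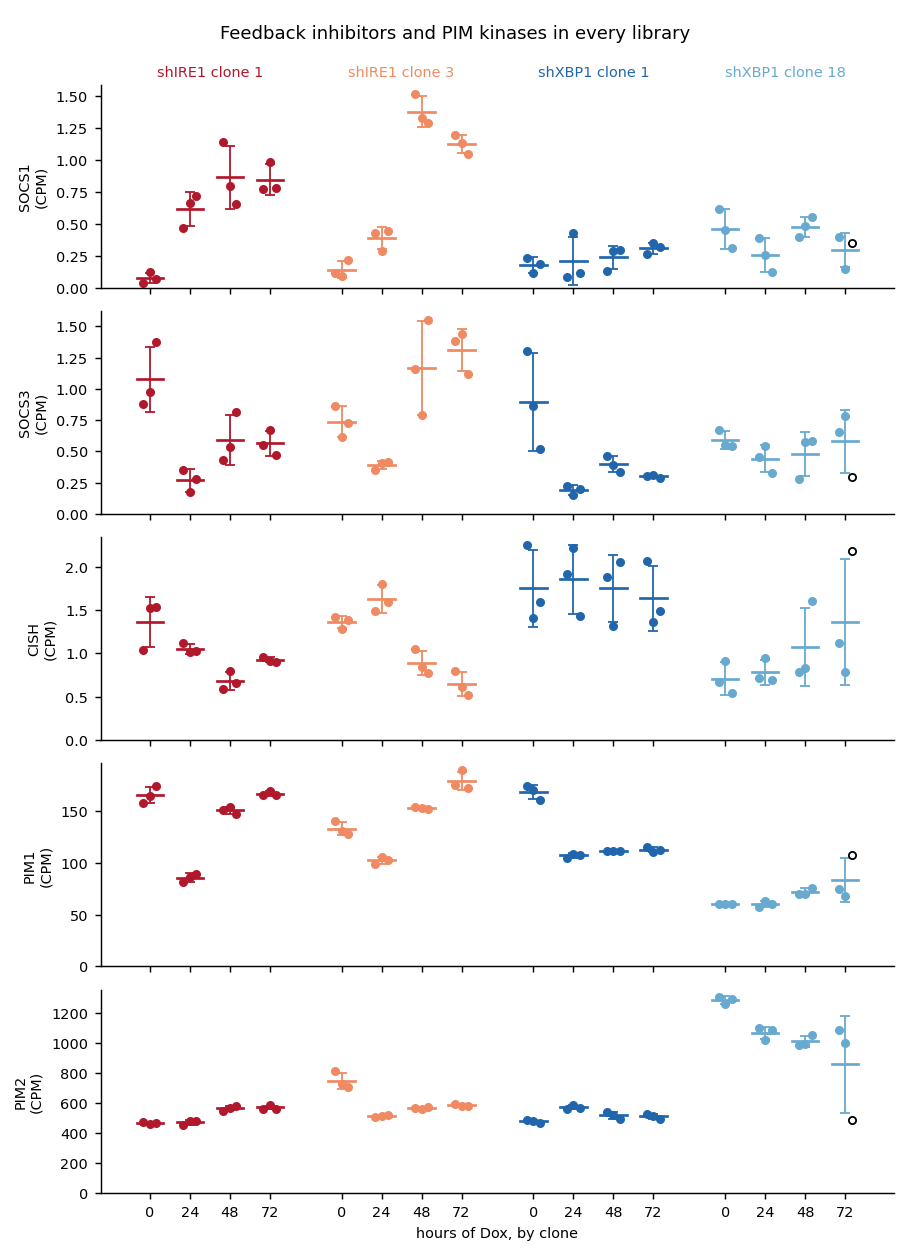
CPM (y axis, from 0) of SOCS1, SOCS3, CISH, PIM1 and PIM2 in each of the 48 libraries, by clone and hours of Dox (x axis), with lines at the group mean and bars for the SD (n = 3). The open black circle is the library labelled shXBP1 clone 18, 72 h, replicate 3. SOCS1 rises after Dox in the shIRE1 clones, PIM1 dips at 24 h in both, and PIM2 rises in shIRE1 clone 1 and falls in shIRE1 clone 3.

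The response to shIRE1 was then set against that to shXBP1 in a fit of all 48 libraries, each as the mean of its 2 clones. This comparison asked which genes changed differently under the shRNA sets, and could not separate loss of IRE1 from loss of XBP1. Its p-values measure the spread between replicates within a group, not the spread between the 2 clones of a set. Mean ERN1 stood at 1.56 to 1.72 of its 0 h level in shXBP1 clone 1 and at 0.816 to 0.969 in clone 18. Mean XBP1 in the shIRE1 clones stood at 1.08 (clone 1) and 0.91 (clone 3) at 24 h, and at 0.52 to 0.77 at 48 and 72 h. Of the 9 genes tested besides IL6R, 6 differed at 24 h, 7 at 48 h and 7 at 72 h, where 38.7%, 56.9% and 55.3% of all 18445 genes did. SOCS1 had the largest of these differences, at 2.40, 3.05 and 3.02 on the log2 scale (adjusted p from 5.68e-07 to 0.000117). This gene had only 1 to 52 counts per library. IL6ST was lower after shIRE1 than after shXBP1 by -0.86, -1.01 and -1.03 (adjusted p from 8.18e-13 to 2.09e-10). JAK1 differed by 0.18, 0.57 and 0.52 and STAT3 by 0.14, 0.47 and 0.41, and all 6 of these values were called (adjusted p from 9.38e-12 to 0.0194). CISH was called with -1.11 (adjusted p = 0.00107) at 48 h and with -1.25 (adjusted p = 0.000313) at 72 h. The values for IL6R, with no test, were -1.86, -3.54 and -3.19.

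The other differences between the shRNAs were smaller or turned with time. PIM1 differed by -0.34 at 24 h, by 0.20 at 48 h and by 0.27 at 72 h (adjusted p = 0.000801, 0.0319 and 0.00408). JAK2 was called with -0.32 (adjusted p = 0.0176) at 24 h and with -0.25 (adjusted p = 0.0468) at 48 h, and its 72 h value of -0.25 was just above the threshold (adjusted p = 0.0526). SOCS3 differed by 0.76 at 72 h (adjusted p = 0.0432). PIM2 was not called at any time, with -0.27, 0.05 and 0.21. With the library that stood apart left out, the SOCS3 difference was 0.58 and no longer called (adjusted p = 0.111), while PIM2 at 24 h (-0.28, adjusted p = 1.24e-06) and JAK2 at 72 h (-0.31, adjusted p = 0.0117) were called. The STAT3 call at 24 h was lost with no filter on low counts (0.14, adjusted p = 0.225). It was also lost when shIRE1 clone 1 was set against shXBP1 clone 1 alone (0.12) or shIRE1 clone 3 against shXBP1 clone 18 alone (0.15).

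Single libraries also moved these smaller differences. The JAK2 call at 48 h was lost without any 1 of 13 libraries (-0.25 to -0.19). These were 0 h replicate 1 and 48 h replicates 1 and 3 of shIRE1 clone 1, 0 h replicate 2 and 48 h replicates 1 and 3 of shIRE1 clone 3, 0 h replicates 1 and 2 and 48 h replicate 2 of shXBP1 clone 1, and 0 h replicates 1 and 3 and 48 h replicates 1 and 2 of shXBP1 clone 18. The JAK2 value at 72 h passed without any 1 of 9 libraries (-0.28 to -0.26), namely 0 h replicates 2 and 3 and 72 h replicate 1 of shIRE1 clone 1, 0 h replicates 1 and 3 and 72 h replicate 3 of shIRE1 clone 3, 0 h replicate 3 and 72 h replicate 1 of shXBP1 clone 1, and 0 h replicate 2 of shXBP1 clone 18. The SOCS3 call at 72 h was lost without any 1 of 15 libraries (0.58 to 0.78). They were 0 h replicates 1 and 2 and 72 h replicates 1 and 2 of shIRE1 clone 1, 0 h replicates 2 and 3 and 72 h replicates 1 and 2 of shIRE1 clone 3, 0 h replicate 1 and all 72 h replicates of shXBP1 clone 1, and all 0 h replicates of shXBP1 clone 18. The SOCS3 value at 48 h passed without shXBP1 clone 1, 0 h replicate 3 (0.71). The PIM1 call at 48 h was lost without 0 h replicate 1 or 48 h replicate 2 of shIRE1 clone 1, 0 h replicate 3 of shIRE1 clone 3, 0 h replicate 1 of shXBP1 clone 1 or 48 h replicate 2 of shXBP1 clone 18 (0.18 to 0.19). The STAT3 call at 24 h was lost without any 1 of 7 libraries (0.11 to 0.12), namely 0 h replicate 3 of either shIRE1 clone, 0 h replicates 1 and 2 and 24 h replicate 1 of shXBP1 clone 1, and 0 h replicate 1 and 24 h replicate 1 of shXBP1 clone 18. The 72 h value of PIM2 passed without 72 h replicate 1 of shXBP1 clone 18 (0.31).

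The 2 clones of one shRNA were also compared with each other. Between the shIRE1 clones, 4 of the 9 genes tested besides IL6R responded differently at 24 h, 5 at 48 h and 5 at 72 h, against 28.2%, 30.8% and 27.5% of all genes. The fall of IL6ST was the deeper in clone 3 at all 3 times, and PIM2 differed by 0.56, 0.68 and 0.65 (clone 1 minus clone 3). SOCS3 differed by -1.54 at 48 h and -1.75 at 72 h, and the rise of STAT3 was the larger in clone 3 at 48 and 72 h. JAK1, SOCS1 and CISH were not called as different between these clones at any time. The values for IL6R, with no test, were 0.24, 2.19 and 1.83, so that its fall was deeper in clone 3 as well.

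Between the shXBP1 clones, 5, 5 and 7 of the 10 genes responded differently at 24, 48 and 72 h, against 17.1%, 24.1% and 24.6% of all genes. JAK2 differed by 0.72, 0.99 and 1.12 (clone 1 minus clone 18), JAK1 by 0.26, 0.39 and 0.37, and PIM1 by -0.66, -0.86 and -1.06. IL6R was not called, with 0.13, -0.08 and -0.11 (adjusted p = 0.401, 0.626 and 0.447). Without the library that stood apart the 72 h differences of IL6ST (0.33, adjusted p = 0.0705) and CISH (-0.54, adjusted p = 0.356) lost their calls. The PIM2 difference at 72 h fell from 0.68 to 0.37 and was still called (adjusted p = 3.57e-05).

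The clones already differed before Dox. At 0 h, 4 of the 9 genes tested besides IL6R differed between the shIRE1 clones (40.6% of all genes did) and 9 of 10 between the shXBP1 clones (51.3%). IL6ST was lower in clone 1 than in clone 3 of shIRE1 by -0.55, JAK2 by -0.31 and PIM2 by -0.68, while PIM1 was higher by 0.32 (adjusted p from 3.21e-06 to 0.0225). JAK2, PIM1 and PIM2 differed most between the shXBP1 clones, by -1.48, 1.49 and -1.44 (clone 1 minus clone 18, adjusted p from 1.23e-17 to 1.17e-12). IL6R was higher in shXBP1 clone 1 by 0.34 (adjusted p = 0.000129). The IL6ST value that fell furthest after shIRE1 thus belonged to the clone that began with more of it.

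To place IL6R among all genes, its 16 group means of log2 CPM were correlated with those of 12009 genes with a mean log2 CPM above 1. This is a description over groups that share clones, and it carries no test. The genes most like it were EZR (Pearson r = 0.985, Spearman rho = 0.782), RPA3 (0.982 and 0.962), KLF3 (0.982 and 0.971), PXK (0.982 and 0.885) and MAP7 (0.977 and 0.924). EZR encodes ezrin, which links membrane proteins to the actin cortex, and RPA3 a subunit of the replication protein that binds single-stranded DNA. None of the pathway genes was among the most similar. IL6ST ranked 2736 (Pearson r = 0.699, Spearman rho = 0.547), JAK2 3552 (0.570 and 0.432) and PIM2 4906 (0.305 and 0.0647). PIM1 (-0.482 and -0.329), JAK1 (-0.821 and -0.679) and STAT3 (-0.850 and -0.732) had negative values. SOCS1, SOCS3 and CISH were too rare for this ranking.

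Other genes of the pathway were described in 3 lists. Of 28 genes for cytokines, receptor chains and the proteases that shed receptors, 20 were tested in shIRE1 clone 1, and 11, 12 and 11 were higher and 4, 5 and 5 lower at 24, 48 and 72 h, where 32.4%, 33.9% and 32.5% of all genes were higher and 29.0%, 31.5% and 31.1% lower. In shIRE1 clone 3, 7, 9 and 10 of 20 were higher and 5, 6 and 6 lower, beside 22.8%, 31.6% and 29.7% of all genes higher and 23.3%, 31.6% and 30.5% lower. The list medians at 72 h were 0.36 and 0.15 on the log2 scale, beside medians over all genes of 0.018 and 0.015. At 72 h IL10RA, a chain of the interleukin 10 receptor, rose by 1.64 in shIRE1 clone 1 and 1.66 in clone 3 (adjusted p = 6.19e-12 and 1.39e-10). IL4R, the interleukin 4 receptor chain, rose by 1.16 and 1.21, and IL11RA, the receptor chain for another gp130 cytokine, by 1.05 and 1.08. ADAM10, a protease that sheds membrane proteins, fell (-0.57 and -0.52), as did LIFR, the partner of gp130 for LIF (-0.30 and -0.53), and IFNAR2, an interferon receptor chain (-0.14 and -0.57). The mRNA of IL6 itself had too few counts to be tested in any clone.

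In shXBP1 clone 1, 6, 5 and 6 of the 20 genes rose and 1, 3 and 2 fell, where 13.9%, 16.6% and 16.8% of all genes were higher and 12.8%, 15.5% and 16.8% lower. In clone 18, where 1.59%, 5.78% and 9.96% of all genes were called, it was 0, 1 and 2 of 19 here. Without the library that stood apart it was 0, 4 and 1 of 20, beside 4.78%, 12.9% and 7.57% of all genes. IL4R rose here as well, by 0.60 in clone 1 and 0.81 in clone 18 at 72 h (adjusted p = 0.00111 and 0.0226), and by 0.51 in clone 18 without that library (adjusted p = 0.0426). ADAM17, the protease best known for shedding IL6R, fell (-0.32 and -0.28, adjusted p = 0.00848 and 0.0248), but in clone 18 the call was lost without that library (-0.22, adjusted p = 0.0564).

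Of 28 further kinases, STATs, adaptors and negative regulators, 27 were tested in both shIRE1 clones. In clone 1, 13, 12 and 12 were higher and 9, 7 and 7 lower at 24, 48 and 72 h, and in clone 3, 7, 9 and 10 were higher and 12, 12 and 11 lower. At the same times 32.4%, 33.9% and 32.5% of all genes were higher in clone 1 and 29.0%, 31.5% and 31.1% lower. In clone 3, 22.8%, 31.6% and 29.7% of all genes were higher and 23.3%, 31.6% and 30.5% lower. The list medians at 72 h, 0.033 and -0.0066, stood beside 0.018 and 0.015 over all genes. TYK2, another kinase bound to gp130, rose at 72 h by 0.94 in clone 1 and 1.20 in clone 3, and PTPRC, the phosphatase CD45, by 0.79 and 1.03. PIM3, a relative of PIM1 and PIM2, fell (-0.66 and -1.27), as did STAT5B (-0.68 and -1.09) and SOCS5, another SOCS family member (-0.80 and -0.84). In shXBP1 clone 1, 11, 13 and 11 of 27 were higher and 1, 3 and 2 lower, with list medians of 0.076, 0.20 and 0.14, beside 13.9%, 16.6% and 16.8% of all genes higher and 12.8%, 15.5% and 16.8% lower. Clone 18 had 0, 1 and 1 of 28 called, beside 1.59%, 5.78% and 9.96% of all genes. Without the library that stood apart it had 3, 3 and 3, beside 4.78%, 12.9% and 7.57% of all genes.

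Of 25 textbook targets of STAT3 and STAT5, 24 were tested. In shIRE1 clone 1, 11, 9 and 9 were higher and 10, 11 and 11 lower at 24, 48 and 72 h, and in clone 3, 5, 7 and 8 were higher and 11, 13 and 13 lower. At the same times 32.4%, 33.9% and 32.5% of all genes were higher in clone 1 and 29.0%, 31.5% and 31.1% lower. In clone 3, 22.8%, 31.6% and 29.7% of all genes were higher and 23.3%, 31.6% and 30.5% lower. Calls in both directions are therefore no result about the targets. The list medians at 72 h were -0.17 in clone 1 and -0.29 in clone 3. IRF1, an interferon-induced factor, was up at 72 h by 1.46 and 1.68 (adjusted p = 6.31e-13 and 6.53e-11), and BCL3 by 1.11 and 0.54. BCL2L1, which encodes the survival protein BCL-XL, rose by 0.68 and 0.88. IRF4, the factor on which myeloma cells depend, fell (-1.11 and -2.10), as did BIRC5, which encodes survivin and serves cell division and survival (-1.39 and -1.45), and VEGFA, the angiogenic growth factor (-0.81 and -1.51). In shXBP1 clone 1, 3, 5 and 6 of 24 were higher and 7, 8 and 7 lower. XBP1 itself, the gene that the shRNAs target, was among the lower genes at every time. In shXBP1 clone 1, 13.9%, 16.6% and 16.8% of all genes were higher and 12.8%, 15.5% and 16.8% lower. Clone 18 had 2, 3 and 3 of 24 called, XBP1 among them at every time, beside 1.59%, 5.78% and 9.96% of all genes. Without the library that stood apart it had 7, 7 and 4, beside 4.78%, 12.9% and 7.57% of all genes.

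**Figure D4:**
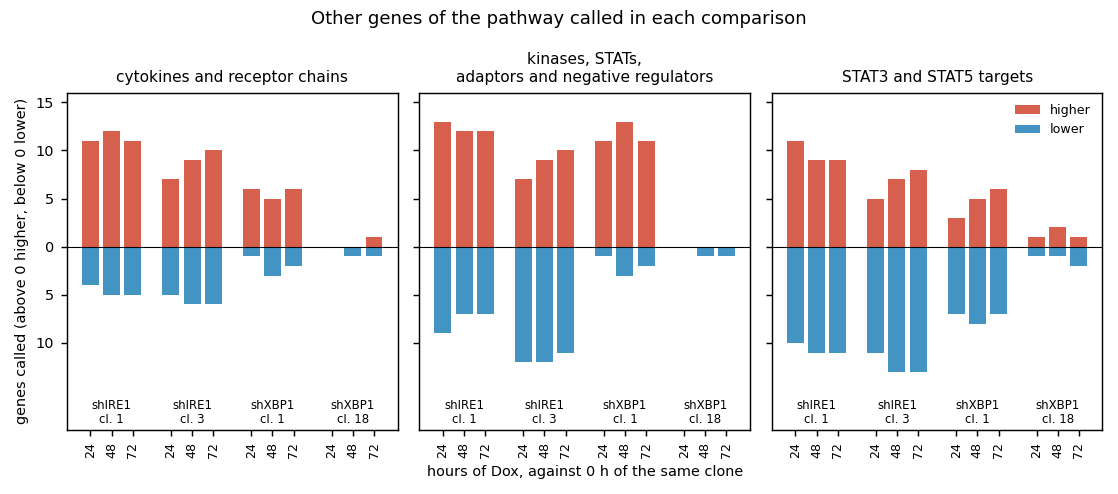
Number of genes called higher (above 0) and lower (below 0) on the y axis in 3 lists of other pathway genes, for each clone at 24, 48 and 72 h against 0 h (x axis). The shIRE1 clones have calls in both directions in every list, shXBP1 clone 1 has more higher than lower calls in the kinase list (11 to 13 against 1 to 3), and shXBP1 clone 18 has at most 3 calls in any list.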

How the data were processed

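RNA was sequenced from 48 libraries of AMO1 cells, 3 biological replicates for each of 4 clones at 4 times. Per the submitters' processing notes, the authors aligned the reads with GSNAP, and the deposited counts are whole reads per gene, not normalized. The authors also deposited a table of log2 CPM for 18401 genes, and the notes name R 4.1.3, edgeR 3.32.1 and limma 3.46.0. The table matched the log2 CPM that edgeR computes from the counts (prior count 2), with a largest gap of 5e-14. The notes name both GRCh37 and hg19 as builds. The study's methods refer to earlier work for these libraries, and state a GRCh38 release and a GENCODE annotation for shIRF4 libraries only. Coordinates therefore come from GENCODE 44 on GRCh38. Per the labels a stranded kit was used, but the use of strand in the counting is not given for these libraries, and genes whose exons overlap are uncertain.

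Counts were tested in R 4.3.3 with edgeR 4.0.16 (TMM factors, filterByExpr with a minimum count of 10 and total of 15, quasi-likelihood F test, Benjamini-Hochberg adjustment over all genes tested, threshold 0.05). Each time was compared with 0 h in a fit of the 12 libraries of a clone, and differences between shRNAs or clones came from a fit of all 48 libraries (18445 genes). The numbers of higher and lower genes are counts at adjusted p under 0.05. The fits were tested on simulated data. Total counts were 19177855 to 40767202 per library. Of 48 replicate pairs within groups, 0 held identical values and the mean chi-square per gene was 1.62 to 55.8. All 48 columns of each table matched a sample, leaving 0 unused. Likeness to IL6R was ranked over genes with a mean log2 CPM above 1. SOCS1 ratios carry exact 95% counting intervals.

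The 10 genes, the 3 lists (cytokines and receptor chains; kinases, STATs, adaptors and negative regulators; STAT3 and STAT5 targets) and the markers were chosen with earlier results of these data known. From each list the text names up to 3 genes a direction, those with the largest mean change at 72 h among genes called the same way in both clones of a shRNA with a mean log2 CPM above 1. ADAM17 and XBP1 in shXBP1 clones were named by the same rule. A gene that the rule also picked is not reported here. Alternatives were DESeq2 1.42.0, the deposited log2 CPM with limma 3.58.1, other size factors, no filter, one fit of all libraries, only the 6 libraries compared, the replicate number as a block, single pairs of clones, and leaving out each library. p-values measure the spread between the biological replicates of 1 clone at 1 time. In the fit of all 48 libraries they do not measure the spread between clones of one shRNA set.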

Additional observations from a re-analysis of the deposited data

Results flagged for a closer look

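The results below are those in which both clones of one shRNA responded differently by the test of the difference itself, given as the log2 change of one clone minus that of the other, each against its own 0 h libraries. There were 14 between the shIRE1 clones (clone 1 minus clone 3) and 17 between the shXBP1 clones (clone 1 minus clone 18), and the causes were not tested.

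Between the shIRE1 clones, IL6ST, the signalling chain gp130, differed by 0.54, 0.41 and 0.44 at 24, 48 and 72 h (adjusted p = 0.00107, 0.0121 and 0.00707). JAK2 differed by 0.47 at 24 h (adjusted p = 0.0203). STAT3 differed by -0.23 at 48 h and -0.21 at 72 h (adjusted p = 0.00692 and 0.0167). SOCS3 differed by -1.54 at 48 h and -1.75 at 72 h (adjusted p = 0.00341 and 0.00119), and its change was a fall in clone 1 and a rise in clone 3. PIM1 differed by -0.58, -0.34 and -0.42 at 24, 48 and 72 h (adjusted p = 0.000139, 0.0187 and 0.00428). PIM2 differed by 0.56, 0.68 and 0.65 (adjusted p = 0.0107, 0.00173 and 0.00337).

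Between the shXBP1 clones, IL6ST differed by 0.50 at 48 h and 0.42 at 72 h (adjusted p = 0.00301 and 0.0129). JAK1 differed by 0.26, 0.39 and 0.37 at 24, 48 and 72 h (adjusted p = 0.0144, 0.000247 and 0.000336), and JAK2 by 0.72, 0.99 and 1.12 (adjusted p = 0.000603, 4.18e-06 and 4.35e-07). SOCS3 differed by -1.83 at 24 h and -1.54 at 72 h (adjusted p = 0.0100 and 0.0177). PIM1 differed by -0.66, -0.86 and -1.06 (adjusted p = 6.22e-05, 5.43e-07 and 5.15e-09), and PIM2 by 0.53, 0.47 and 0.68 (adjusted p = 0.0243, 0.0401 and 0.00252). CISH differed by -1.05 at 72 h (adjusted p = 0.0449). With 72 h replicate 3 of clone 18, which stood apart, left out, the 72 h differences of IL6ST (0.33) and CISH (-0.54) were no longer called.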

How the results depend on the processing

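Single libraries and the choice of libraries in the fit moved the results in shXBP1 clone 18 most. The number of the 10 genes called there at 24 h was 0 as reported, 2 with no filter on low counts, 1 with all 48 libraries in the fit, 1 with DESeq2, 2 with only the 6 libraries compared and 2 when the library that stood apart (72 h, replicate 3) was left out. At 48 h it was 0 as reported, 2 with no filter, 1 with all 48 libraries, 4 with the 6 libraries and 3 with that library left out. At 72 h it was 1 as reported, 3 with no filter, 3 with all 48 libraries and 0 with the 6 libraries, and leaving out single libraries gave 0 to 2. Leaving out single libraries gave 5 to 8 in shIRE1 clone 1 at 72 h and 3 to 5 in shXBP1 clone 1 at 48 h. In shXBP1 clone 18, 1.59%, 5.78% and 9.96% of all genes were called at 24, 48 and 72 h as reported. Without the library that stood apart it was 4.78%, 12.9% and 7.57%. Shares of all genes under the other settings in this section were not computed, so these counts are no result about the 10 genes. With shIRE1 clone 3 set against shXBP1 clone 18 alone, the JAK2 difference at 48 h turned from -0.25 to 0.081, and those of PIM1 from 0.20 to -0.059 at 48 h and from 0.27 to -0.048 at 72 h. The cause was not tested for any of these. RLE size factors changed none of 227 results, and the deposited log2 CPM with limma changed 3 of 227. Samples with the same replicate number did not deviate together (0 of 12 comparisons, correlations from -0.41 to 0.25). With the replicate block 8, 7 and 8 genes were called in shIRE1 clone 3 at 24, 48 and 72 h and 5, 4 and 4 in shXBP1 clone 1, where the fit without it gave 8, 8 and 8, and 5, 5 and 6. Depth limits SOCS1, SOCS3 and CISH, which had at most 88 counts in a library.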
